A study of Mus musculus with 24 samples.

Results

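Cerebellar transcripts of SCA1 S776A mice were compared with those of SCA1 mice over every expressed gene. The comparison asked how cerebellar RNA differs when serine S776 of polyQ-expanded ATXN1 is replaced by alanine, the expanded allele being present in both groups. It used the 8 libraries that carry these genotype labels, 4 of SCA1 S776A mice and 4 of SCA1 mice, out of the 24 libraries of the series. All mice were 6 weeks old. SCA1 mice carry 1 polyQ-expanded knockin *Atxn1* allele and 1 unexpanded 2Q allele. SCA1 S776A mice carry the same pair of alleles, with S776A on the expanded copy alone. The edit was made with CRISPR/Cas9 in zygotes of the SCA1 knockin line, together with synonymous changes, and founders were backcrossed to C57BL/6J mice. Expression was driven by the endogenous *Atxn1* locus in every cell that uses it, not by a Purkinje cell promoter. The labels do not say from which founder line or litter a mouse came. Values of 4 WT mice (2Q/2Q) and 4 S776A double mice, which carry S776A on both the expanded and the 2Q allele, of the same batch are set beside those of the 8 libraries.

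ATXN1 is a nuclear protein that binds the transcriptional repressor Capicua, encoded by *Cic*. Expansion of its glutamine tract causes spinocerebellar ataxia type 1 (SCA1), in which cerebellar Purkinje cells are lost. Phosphorylation at S776 permits binding of 14-3-3 proteins and is known to stabilize ATXN1, and alanine at this position cannot be phosphorylated.

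The edited serine lies in exon 8 of 8 of the mouse gene, in the coding sequence. The reference stretch around it, from the longest coding transcript of GENCODE M21 on GRCm38, chr13:45557148-45557210, minus strand, is shown because it holds the designed coding change. Capitals mark the serine codon, which is residue 751 of 791 in the mouse reference protein and corresponds to S776 in the numbering used for the mutation.
Atxn1 edited site: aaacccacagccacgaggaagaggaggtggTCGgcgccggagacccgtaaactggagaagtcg

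The 8 libraries held 62163600 to 75461253 fragments on genes, and levels are given as CPM, the count scaled to library size. No measure of depth or mapping passed a test between the groups (lowest exact two-sided permutation p = 0.143 over 4 against 4). Replicates are separate mice of a genotype and are numbered only as names. *Ddx3y*, a gene of the Y chromosome, stood at 91.2 to 99.4 CPM and *Xist*, which marks the inactive X, at 0.116 to 1.04 CPM in all 8 libraries. A library stood apart by its tissue content. SCA1 S776A replicate 2 held 249.1 CPM over 13 skeletal muscle genes and 129.7 CPM over 9 brown fat genes, where the highest of the other 23 libraries had 21.9 and 17.4 CPM. In that library *Fabp4*, a fatty acid carrier of fat cells, reached 48.1 CPM, *Ucp1*, the uncoupling protein of brown fat, 16.2 CPM, and *Mylpf*, a myosin light chain of fast muscle, 39.6 CPM. These lists and genes were chosen after their values were seen, and results that rest on this library are given with and without it. SCA1 S776A replicate 4 differed from the other 3 in *Slc15a2*, a peptide transporter gene, with 4.99 CPM against 59.8 to 69.4 CPM.

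*Atxn1* itself did not differ between the groups beyond the spread of the mice. It stood at 55.2, 58.3, 63.9 and 57.9 CPM in the SCA1 mice and at 61.1, 62.0, 55.3 and 67.0 CPM in the SCA1 S776A mice. The groups overlapped over most of their range. The log2 fold change was 0.06 (95% CI -0.11 to 0.23), and an exact two-sided permutation test gave p = 0.371. The counts add the transcripts of both alleles, so the expanded and the unexpanded copy were not separated. *Atxn1l*, the paralog of *Atxn1*, differed by 0.03 (95% CI -0.14 to 0.21) and *Cic* by 0.14 (95% CI -0.34 to 0.62) on the log2 scale. WT mice had 50.8 ± 2.22 and S776A double mice 62.1 ± 8.27 CPM of *Atxn1* (SD, n = 4 each).

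Of 22502 genes tested, 1 was called between SCA1 S776A and SCA1 mice, or 0.00444%, in the quasi-likelihood test of edgeR. A call needed a log2 fold change beyond 0.5 in either direction, and an adjusted p (Benjamini-Hochberg) under 0.01. The called gene, *Gm15083*, was higher in SCA1 S776A mice (0.00444% of genes called in that direction). The next gene by adjusted p, *Gm39465*, had 0.139. At an unadjusted p under 0.05 stood 979 genes, or 4.35%, of which 553 (2.46%) were higher and 426 (1.89%) lower in SCA1 S776A mice. Libraries of the groups did not overlap in 389 genes that were higher (1.73%) and in 378 that were lower (1.68%). The median log2 fold change over all genes tested was 0.00028.

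Most estimates were small. Among 14993 genes with a mean of at least 1 CPM, 5% to 95% of the log2 fold changes lay between -0.19 and 0.21, and the median standard error was 0.093. In this set 88 genes were more than 0.5 higher and 61 more than 0.5 lower on the log2 scale, whatever their p. Only 24 of the 88 and 11 of the 61 had libraries that did not overlap between the groups. Without SCA1 S776A replicate 2 these counts were 35 of 92 and 23 of 161, and without replicate 4 they were 59 of 125 and 15 of 67. A group with 1 library fewer is more often free of overlap, so these counts cannot be set directly against the 24 and 11. With all 8 libraries, and whatever the size of the fold change, 268 higher and 295 lower genes of the 14993 did not overlap. Many of the largest folds came from SCA1 S776A replicate 2: with all 8 libraries 22 genes stood more than 1 log2 unit higher, and without that library 5 did, while the genes more than 1 log2 unit lower went from 8 to 17. *Myh4*, a myosin heavy chain of fast muscle, had a log2 fold change of 3.86 with the library and -0.03 without it, and *Fabp4* had 4.64 and -0.24. Neither passed the test with all 8 libraries (edgeR adjusted p = 0.965 and 0.937).

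**Figure D1:**
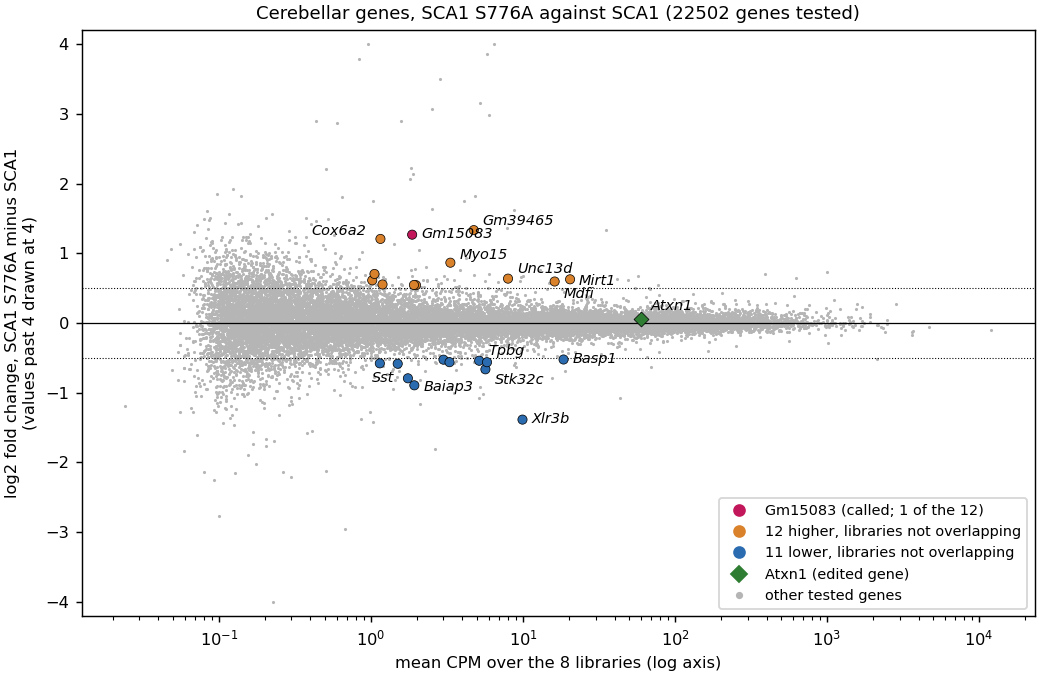
Log2 fold change of SCA1 S776A minus SCA1 mice (vertical axis) against the mean CPM over the 8 libraries (horizontal log axis) for the 22502 genes tested, with dotted lines at 0.5 and -0.5. Gm15083, the called gene, and the 11 other higher and 11 lower genes described in the text stand outside the dotted lines, Atxn1 lies near 0, and the grey points above 2 include the muscle and fat genes of a single SCA1 S776A library.

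*Gm15083* is a long noncoding RNA gene on chr6:114004789-114052265, plus strand (GRCm38), annotated as antisense to *Atp2b2*. Its level was 0.961, 1.00, 1.25 and 1.16 CPM in the 4 SCA1 mice and 2.91, 2.06, 2.44 and 3.14 CPM in the 4 SCA1 S776A mice. The lowest SCA1 S776A mouse lay above the highest SCA1 mouse. The log2 fold change was 1.27 ± 0.17 (SE), a 2.41-fold higher level, with an edgeR adjusted p of 0.00117. WT mice had 3.15 ± 0.48 and S776A double mice 2.37 ± 0.32 CPM (SD, n = 4 each). The mean of SCA1 S776A mice lay between those of SCA1 and WT mice. The values rest on 69 to 88 fragments in an SCA1 library and 133 to 239 in an SCA1 S776A library.

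The libraries did not keep the strand of the transcript, so reads of *Gm15083* and of *Atp2b2* on the opposite strand cannot be told apart by direction. *Atp2b2*, which encodes a plasma membrane calcium pump abundant in Purkinje cells, had 715.7, 747.1, 666 and 636.5 CPM in the SCA1 mice and 826, 720, 806.3 and 819.8 CPM in the SCA1 S776A mice. Its groups overlapped, with a log2 fold change of 0.20 ± 0.13 and an edgeR adjusted p of 1.00. When fragments were counted for a single read direction, *Gm15083* had a log2 fold change of 1.45 in the direction of the third count column and of 1.09 in that of the fourth. The second of these did not pass the test (edgeR adjusted p = 0.181). Each direction rests on fewer fragments than the unstranded count. The third column held 33 to 42 in an SCA1 and 75 to 118 in an SCA1 S776A library. The fourth held 36 to 50 and 58 to 121. Without SCA1 replicate 1 or 2, the adjusted p was 0.0146 or 0.0135 and the gene was not called, with a log2 fold change of 1.22 or 1.24.

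The RefSeq window around the annotated start of *Gm15083* that lies 33 bases from the GENCODE start, 250 bases before to 50 after it, is given with GRCm38.p6 coordinates chr6:114004506-114004805, plus strand, as the start of the called transcript. It was searched on both strands for the 4 spellings of the octamer known for Capicua, TGAATGAA, TGAATGGA, TCAATGAA and TCAATGGA, which would stand in capitals.
Gm15083 start window: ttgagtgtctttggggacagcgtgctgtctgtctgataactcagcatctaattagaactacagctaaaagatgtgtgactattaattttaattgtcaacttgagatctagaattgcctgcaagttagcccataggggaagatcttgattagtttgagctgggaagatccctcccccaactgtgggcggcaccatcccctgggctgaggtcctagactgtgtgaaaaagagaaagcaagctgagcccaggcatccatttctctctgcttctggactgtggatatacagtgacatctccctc
None of the 4 spellings was in it. Of the 23 leading genes named here by size and separation, 18 had at least 1 window in the RefSeq table, and none of their 22 windows held an octamer, against 3.84% of all 32851 windows. At a share that low, 22 windows are too few for their lack of an octamer to be told apart from it. That the letters are absent from these windows says nothing of Capicua elsewhere at these genes.

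A further 11 genes that were higher in SCA1 S776A mice were named by a fixed rule, as those with the lowest unadjusted p among genes of at least 1 CPM, a log2 fold change over 0.5 and no overlap of the 4 against 4 libraries. None passed the edgeR test after adjustment. *Gm39465*, a long intergenic noncoding RNA of chromosome 9 that overlaps *Gm39464* on the other strand, stood at 2.14, 2.25, 3.45 and 2.95 CPM in SCA1 mice and at 6.32, 6.77, 10.1 and 3.98 CPM in SCA1 S776A mice. Replicate 4 of the SCA1 S776A mice was the lowest and lay closest to the SCA1 range. The log2 fold change was 1.33 ± 0.24 (edgeR adjusted p = 0.139), and without that replicate it was 1.53 and the gene was called.

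*Unc13d* encodes Munc13-4, which primes secretory granules for release. It had 6.55, 5.88, 6.29 and 6.26 CPM in SCA1 mice and 8.82, 9.82, 11.8 and 8.35 CPM in SCA1 S776A mice, a log2 fold change of 0.64 ± 0.12 (edgeR adjusted p = 0.140). *Myo15*, an unconventional myosin known from the hair cells of the inner ear, had 2.24, 2.11, 2.84 and 2.25 CPM against 5.28, 3.87, 3.95 and 4.10 CPM, a log2 fold change of 0.87 ± 0.17 (edgeR adjusted p = 0.186). In both genes the SCA1 mice were tightly grouped, and every SCA1 S776A mouse lay above them, as the rule that named them required. *Mdfi*, an inhibitor of MyoD family transcription factors, had 11.1, 14.0, 14.2 and 12.2 CPM in SCA1 mice and 21.3, 17.3, 17.2 and 21.9 CPM in SCA1 S776A mice. *Mirt1*, a long noncoding RNA, had 13.7, 15.0, 18.0 and 17.5 CPM against 23.5, 27.5, 29.4 and 18.7 CPM, with replicate 4 of the SCA1 S776A mice again the nearest to SCA1. *Procr*, the receptor of protein C on endothelial cells, had 1.64, 1.44, 1.60 and 1.76 CPM against 2.31, 1.96, 2.57 and 2.53 CPM. The log2 fold changes of these 3 genes were 0.60 ± 0.12, 0.63 ± 0.14 and 0.54 ± 0.11.

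The remaining higher genes were of low level, with group means of at most 2.28 CPM. They were *Cdk6*, a kinase of the G1 phase of the cell cycle, with a log2 fold change of 0.61 ± 0.15, *B3gnt8*, a glycosyltransferase (0.55 ± 0.16), *Gchfr*, the feedback regulator of tetrahydrobiopterin synthesis (0.55 ± 0.17), the antisense RNA gene *Gm16299* (0.70 ± 0.20) and *Cox6a2*. *Cox6a2* is the heart and skeletal muscle form of a cytochrome c oxidase subunit. It had 0.728, 3.45, 1.08 and 1.19 CPM in SCA1 S776A mice against 0.668 to 0.724 CPM in SCA1 mice, and the high value was that of the library with muscle and fat genes. Its log2 fold change was 1.21 ± 0.33 with that library and 0.54 without it. As *Gm16299* is antisense to *Rbm20* and the libraries keep no strand, reads of these genes cannot be told apart. *B3gnt8* overlaps *Bckdha* on the other strand, and with counts of a single read direction its log2 fold change was 0.03 or 0.02. As the libraries keep no strand, these counts can include reads of *Bckdha*, so they do not isolate *B3gnt8*.

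Among genes that were lower in SCA1 S776A mice, 11 met the same rule, and all of them encode proteins, as do 89.4% of genes of at least 1 CPM. *Basp1*, a membrane protein of growth cones and nerve endings, stood at 23.5, 23.7, 19.2 and 20.8 CPM in SCA1 mice and at 15.1, 15.5, 14.6 and 15.4 CPM in SCA1 S776A mice. The SCA1 S776A mice lay within 1 CPM of each other and below every SCA1 mouse. The log2 fold change was -0.52 ± 0.11 (edgeR adjusted p = 0.208). *Tpbg*, a surface glycoprotein that modulates Wnt signaling, had 6.48, 6.38, 5.63 and 5.94 CPM against 4.22, 4.28, 3.94 and 4.35 CPM, a log2 fold change of -0.54 ± 0.12. *Sst*, the neuropeptide somatostatin, had 2.87, 2.42, 1.88 and 1.71 CPM against 1.46, 1.10, 1.20 and 1.37 CPM, a log2 fold change of -0.79 ± 0.18. Both had an edgeR adjusted p of 0.300.

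*Stk32c*, a serine/threonine kinase, had a log2 fold change of -0.66 ± 0.15 and *Hsf4*, a heat shock transcription factor known from the lens, of -0.53 ± 0.12. In SCA1 mice *Stk32c* split into 8.41 and 7.90 against 5.49 and 5.96 CPM, while SCA1 S776A mice had 3.91 to 5.01 CPM. *Arhgdig*, *Asxl3*, a Polycomb-associated protein, *Vstm5*, a membrane protein of the immunoglobulin type, and *Elfn1*, a postsynaptic adhesion protein of interneurons, had log2 fold changes of -0.56 ± 0.15, -0.56 ± 0.15, -0.58 ± 0.16 and -0.58 ± 0.20. *Baiap3*, a relative of the Munc13 proteins, had a log2 fold change of -0.89 ± 0.38, and 1 SCA1 mouse at 4.33 CPM stood above the other 3 at 1.51 to 2.39 CPM. Without that mouse the log2 fold change was -0.49, and with counts of a single read direction it was -0.25 or -0.43, *Tsr3* lying on the other strand. Such counts can include reads of *Tsr3*, as the libraries keep no strand. *Xlr3b* had 9.98 and 9.64 CPM in 2 SCA1 S776A mice and 1.39 and 1.08 CPM in the other 2, against 12.0 to 19.0 CPM in SCA1 mice. It belongs to a family of near-identical X-linked copies, so its counts are uncertain, and its unadjusted p was 0.0658 in edgeR.

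**Figure D2:**
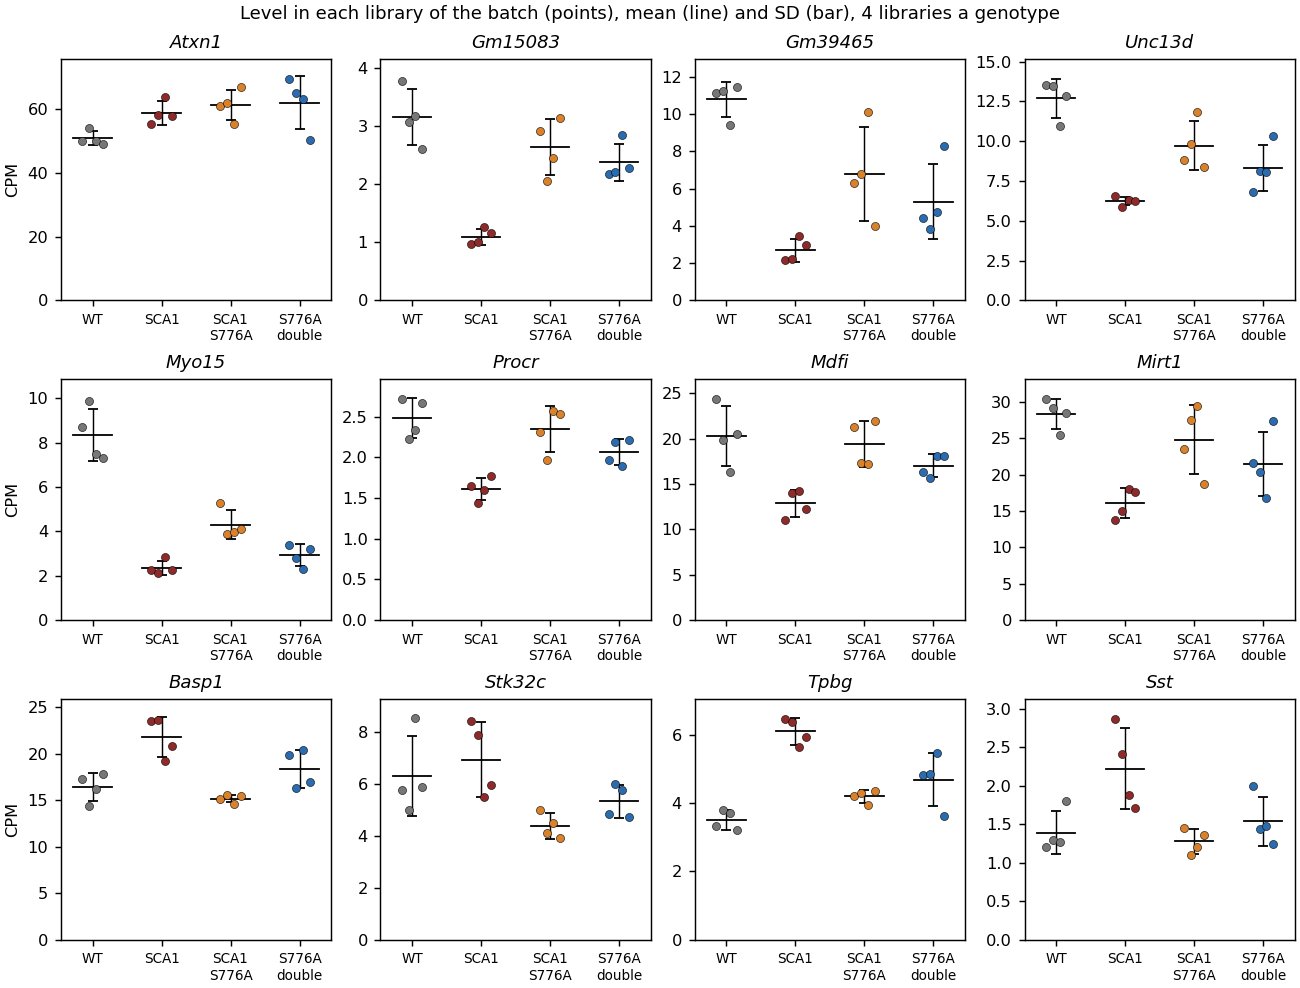
CPM of Atxn1 and 11 leading genes in each of the 4 libraries of 4 genotypes of the same batch, from WT at the left to S776A double at the right (points), with the mean (line) and the SD (bar). Atxn1 overlapped between SCA1 and SCA1 S776A mice. The 7 next genes were higher in each SCA1 S776A mouse than in any SCA1 mouse, and the last 4 were lower. The rule that named these genes required this separation.

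The same genes are set beside the WT mice of the batch. These comparisons share libraries with that of SCA1 S776A and SCA1 mice, and the selection of genes rested on that difference, so the values stand side by side and are not independent of each other. *Gm39465* was 2.00 log2 units lower in SCA1 than in WT mice (edgeR adjusted p = 8.07e-05) and 0.67 lower in SCA1 S776A than in WT mice (adjusted p = 1.00). *Myo15* was lower than in WT mice by 1.82 in SCA1 mice (adjusted p = 1.2e-06) and by 0.96 in SCA1 S776A mice (adjusted p = 0.0245). *Unc13d* was lower by 1.02 in SCA1 mice (adjusted p = 2.66e-05) and by 0.39 in SCA1 S776A mice (adjusted p = 0.870). *Tpbg* was higher than in WT mice by 0.80 in SCA1 mice (adjusted p = 0.00132) and by 0.26 in SCA1 S776A mice (adjusted p = 1.00). For *Stk32c*, the log2 difference from WT mice was 0.14 in SCA1 and -0.52 in SCA1 S776A mice, so that the SCA1 S776A mice lay farther from WT. The same pair of differences, SCA1 and then SCA1 S776A from WT, was 0.10 and -0.43 for *Hsf4*, 0.23 and -0.35 for *Vstm5*, 0.20 and -0.38 for *Elfn1*, 0.22 and -0.68 for *Baiap3*, 0.24 and -1.14 for *Xlr3b*, and -0.14 and 0.57 for *Gm16299*, again with SCA1 S776A mice farther from WT. None of these genes, *Stk32c* included, differed from WT mice after adjustment in either genotype (lowest edgeR adjusted p = 0.762), so only the estimates lay farther. The pair of differences was -1.52 and -0.26 for *Gm15083*, -0.63 and -0.08 for *Procr*, and -0.66 and -0.06 for *Mdfi*, with SCA1 mice farther from WT. It was -0.82 and -0.19 for *Mirt1*, 0.41 and -0.12 for *Basp1* and 0.67 and -0.12 for *Sst*, also with SCA1 mice farther. SCA1 mice were also farther from WT for *Cdk6* (-0.71 and -0.10), *B3gnt8* (-0.54 and 0.01) and *Gchfr* (-0.68 and -0.13). The same held for *Cox6a2* (-0.67 and 0.53), *Arhgdig* (0.51 and -0.06) and *Asxl3* (0.30 and -0.26). Of the genes from *Gm15083* to *Asxl3*, only *Gm15083*, *Procr*, *Mdfi* and *Mirt1* had an edgeR adjusted p under 0.01 between SCA1 and WT mice. None had one between SCA1 S776A and WT mice. Against SCA1 mice, the S776A double mice had a log2 fold change of 1.11 for *Gm15083* (edgeR adjusted p = 0.0105). It was 0.98 for *Gm39465* (adjusted p = 0.815), 0.31 for *Myo15* and -0.38 for *Tpbg*. None of these genes had an adjusted p under 0.01 in that comparison, and those of *Myo15* and *Tpbg* were higher than that of *Gm39465*.

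The number of genes called depended on the test. With DESeq2 and batch as a covariate, 4 of 20738 genes with an adjusted p were called (0.0193%), namely *Gm15083*, *Gm39465*, *Unc13d* and *Myo15*, and all 4 were higher in SCA1 S776A mice. After ComBat-seq batch correction, DESeq2 called 6 of 17682 (0.0339%), these 4 with *Procr* and *Basp1*. DESeq2 on the 8 libraries alone called 8 of 17241 (0.0464%), and *Gm39465*, with an adjusted p of 0.0109, was not among them. Those 8 were *Gm15083*, *Unc13d*, *Myo15*, *Mdfi*, *Mirt1*, *Basp1*, *Tpbg* and *Stk32c*. With edgeR on the 8 libraries alone, 0 genes were called at 0.01, while 1298 stood at an unadjusted p under 0.05 and 4 at an adjusted p under 0.05. The estimates hardly moved between these tests: that of *Gm15083* was 1.27 in each, and that of *Basp1* was -0.52.

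**Figure D3:**
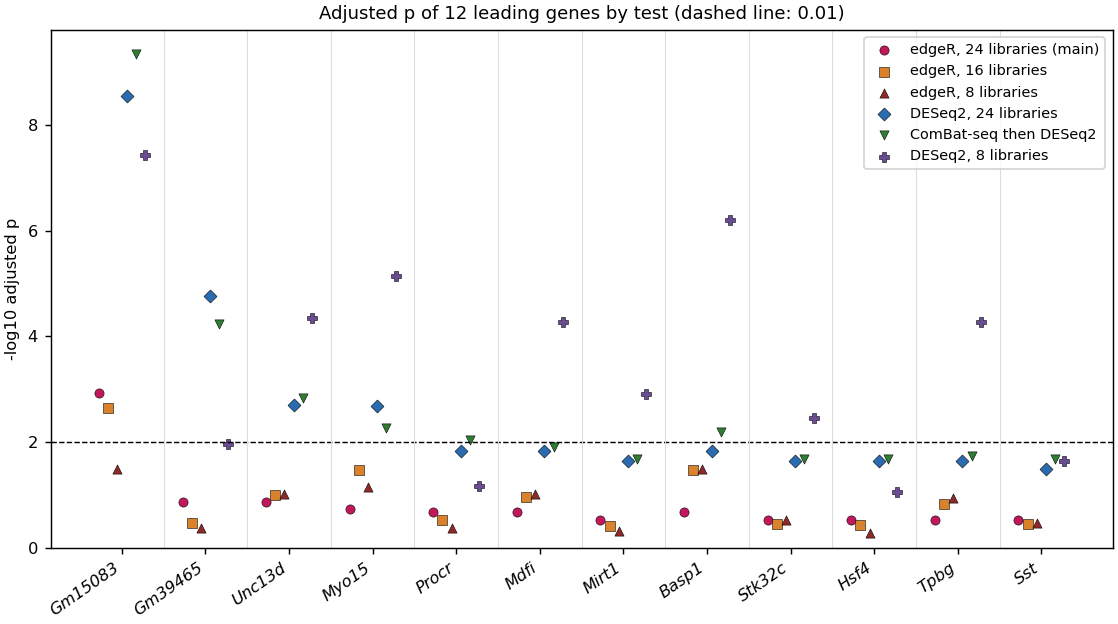
The -log10 of the adjusted p (vertical axis) of 12 leading genes under 3 edgeR and 3 DESeq2 fits (symbols), with a dashed line at an adjusted p of 0.01. Gm15083 lies above the line in 5 of the 6 fits, the other genes lie below it in all 3 edgeR fits, and several lie above it in DESeq2.

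Purkinje cell markers had mostly higher estimates in SCA1 S776A mice, and none passed the test after adjustment. Of 14 markers, 13 had a higher estimate and the median log2 fold change was 0.19, against 0.00028 over all genes tested. An unadjusted p under 0.05 was reached by 7 of the 14 in the higher direction and by 0 in the lower, beside 2.46% and 1.89% of all genes. *Rgs8*, a regulator of G protein signaling, had 949, 1084, 980.4 and 903 CPM in SCA1 mice and 1319.8, 1131, 1195 and 1293 CPM in SCA1 S776A mice. Every SCA1 S776A mouse was above every SCA1 mouse, with a log2 fold change of 0.33 ± 0.11 (edgeR adjusted p = 0.859). *Slc1a6* and *Homer3*, named after their values were seen, did not overlap between the groups either, while *Calb1*, the calcium-binding protein calbindin, did, at 981.6 ± 66.1 and 1102 ± 66.4 CPM (SD, n = 4).

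Summed over the 14 markers, the level was 7026 to 7873 CPM in SCA1 mice and 7918 to 9241 CPM in SCA1 S776A mice. The groups did not overlap (exact permutation p = 0.029, the smallest possible, and 0.566 after adjustment over 22 library measures). WT mice had 9337 to 10798 and S776A double mice 7733 to 10132 CPM. In bulk tissue, fewer cells of a type and less RNA per cell cannot be told apart. The median of the list was 0.16 to 0.24 over the 23 fits made, and without SCA1 S776A replicate 2 it was 0.24. From 4 to 12 of the 14 markers reached an unadjusted p under 0.05 in the higher direction, and the count over all genes moved as well. The edgeR fit without a batch covariate gave 4, with 266 of 22502 genes higher at that p. DESeq2 on the 8 libraries gave 12, with 740 of 22502 genes higher.

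Lists of Purkinje cell function showed estimates of the same sign, with many members in common with the marker list. In signaling of metabotropic glutamate receptor 1 (mGluR1), 14 of 15 genes had a higher estimate, the median was 0.15, and 4 had an unadjusted p under 0.05 in the higher direction, beside 2.46% of all genes. The ion channels of Purkinje firing had a higher estimate in 15 of 15, with a median of 0.12, and 0 of them had an unadjusted p under 0.05. *Kcnma1*, the large-conductance calcium-activated potassium channel, had the lowest p of these, with a log2 fold change of 0.17 ± 0.08. Of 26 genes of other spinocerebellar ataxias, 12 were higher and 14 lower, with a median of -0.01, and 1 had an unadjusted p under 0.05.

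No receptor subunit passed the test. *Chrna3*, the nicotinic acetylcholine receptor subunit alpha 3, had 0.738, 0.449, 0.584 and 0.374 CPM in SCA1 mice and 0.844, 1.16, 0.904 and 0.801 CPM in SCA1 S776A mice, without overlap. Its log2 fold change was 0.79 ± 0.18 (edgeR adjusted p = 0.300), and WT mice had 1.95 ± 0.30 CPM. *Chrnb4*, its neighbour on chromosome 9 and frequent partner subunit, had a log2 fold change of 0.65 ± 0.26. *Chrna4*, the alpha 4 subunit, had -0.29 ± 0.14, and the median over the 7 nicotinic subunits tested was 0.10. Of 34 glutamate and GABA receptor subunits, 24 had a higher estimate, with a median of 0.04. *Gabra5* (-0.92 ± 0.31, at 1.14 CPM in SCA1 mice) and *Gabra3* (-0.25 ± 0.09) had the lowest p.

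Genes of the ATXN1 complex and its regulators had estimates near 0. The median was 0.02 over 15 tested genes of this list, -0.01 over 7 14-3-3 genes, -0.0038 over 7 kinases proposed for S776 and 0.02 over 9 Capicua targets, and 0 Capicua targets had an unadjusted p under 0.05. *Ywhah*, the 14-3-3 eta gene, was the single 14-3-3 gene under 0.05, at 957.8 ± 40.1 and 1064 ± 72.3 CPM. Over 83 tested genes within 5 Mb of *Atxn1*, around the edited site, the median was 0.01 and 3 had an unadjusted p under 0.05, beside 4.35% of all genes. The insulin-like growth factor list had a median of 0.04, and *Igfbp5*, which binds these factors, had 107, 119, 119 and 105 CPM in SCA1 mice against 137, 134, 181 and 152 CPM in SCA1 S776A mice (log2 fold change 0.42 ± 0.13, edgeR adjusted p = 0.859). WT mice had 232.8 ± 11.6 CPM of *Igfbp5*, above both groups.

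Immediate early genes, which are transcribed within minutes of neuronal activity, had mostly lower estimates and varied among mice. Of 16, 15 had a lower estimate, the median was -0.37, and 4 had an unadjusted p under 0.05 in the lower direction, beside 1.89% of all genes. *Btg2* had 27.0, 25.9, 24.3 and 24.5 CPM in SCA1 mice and 18.7, 25.8, 20.1 and 17.5 CPM in SCA1 S776A mice. *Egr2* was far lower in level, at 0.173 ± 0.095 and 0.0653 ± 0.0353 CPM. No member was free of overlap between the groups. The summed level was 376.1 to 596.8 CPM in SCA1 mice and 269.2 to 447.9 CPM in SCA1 S776A mice. Circadian clock genes had a median of 0.17, with 12 of 15 higher. Their summed level spanned 1112 to 1759 CPM in SCA1 mice and 1667 to 1816 CPM in SCA1 S776A mice, so the spread was wider in SCA1 mice. Without SCA1 replicate 4 the median was 0.0029. The hour of dissection was not given in the sources used here.

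Among other cell types, granule cell markers had a median of 0.01, with 0 of 12 under an unadjusted p of 0.05, and the summed level was 8167 ± 500 CPM in SCA1 and 8273 ± 471 CPM in SCA1 S776A mice (SD, n = 4). Inhibitory interneuron markers had a median of 0.13, with 11 of 12 higher. Of these, 2 had an unadjusted p under 0.05 in the higher direction, beside 2.46% of all genes. Without a batch covariate this count was 0, with 266 of 22502 genes higher at that p. Without SCA1 S776A replicate 2 it was 5, with 510 of 22855. Bergmann glia and astrocyte markers had a median of 0.06, with 9 of 12 higher and 1 under 0.05 in that direction. Microglia markers had -0.05, with 10 of 14 lower and 2 under 0.05 in that direction. Oligodendrocyte lineage markers had -0.08, with 14 of 15 lower and 1 under 0.05 in that direction, beside 1.89% of all genes. *Aldoc*, the glial and Purkinje cell aldolase, was the single astrocyte marker without overlap, at 1571 ± 70.9 and 1846 ± 145.5 CPM. Choroid plexus markers, from tissue beside the cerebellum, ranged from 1484 to 7568 CPM in SCA1 mice and from 198.9 to 5166 CPM in SCA1 S776A mice. Their median was -0.40, with a lower estimate in 12 of 12. Without SCA1 replicate 4 the median was 0.03, and without SCA1 S776A replicate 1 it was -0.07. The 5166 CPM were those of SCA1 S776A replicate 2, the library with muscle and fat genes, and without it the median was -0.81. More genes were lower without that library, and the part of choroid plexus content in this was not tested. Red blood cell markers had a median of 0.62 and summed to 66.9 to 139.4 CPM against 127.1 to 203.5 CPM. The highest sum was again that of SCA1 S776A replicate 2, and without that library the median was 0.48. Brainstem markers were close to absent, at 1.60 to 4.74 CPM in all 8 libraries. With a covariate for the choroid plexus level, *Gm15083* remained the gene called, with a log2 fold change of 1.28.

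**Figure D4:**
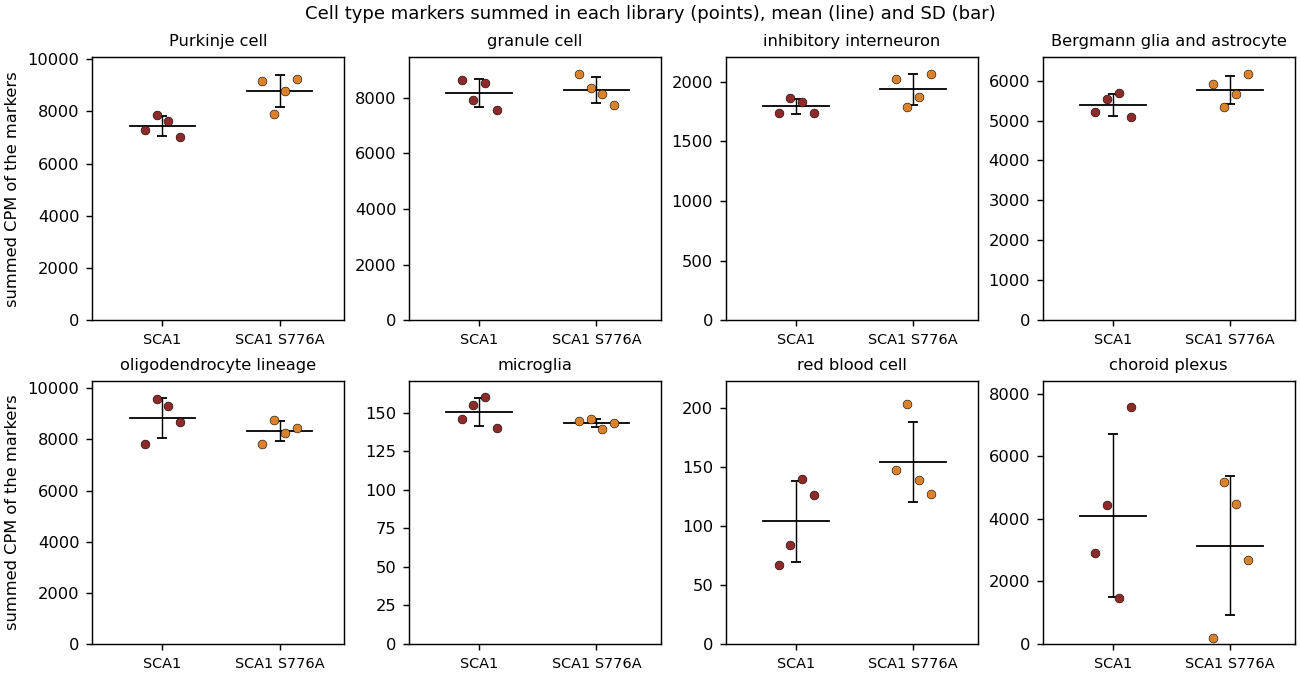
Summed CPM of 8 lists of cell type markers in each of the 4 SCA1 and 4 SCA1 S776A libraries (points), with the mean (line) and the SD (bar), from 0 on each vertical axis. Purkinje cell markers are higher in each SCA1 S776A library than in any SCA1 library, granule cell markers overlap, and choroid plexus markers spread widely in both groups.

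**Figure D5:**
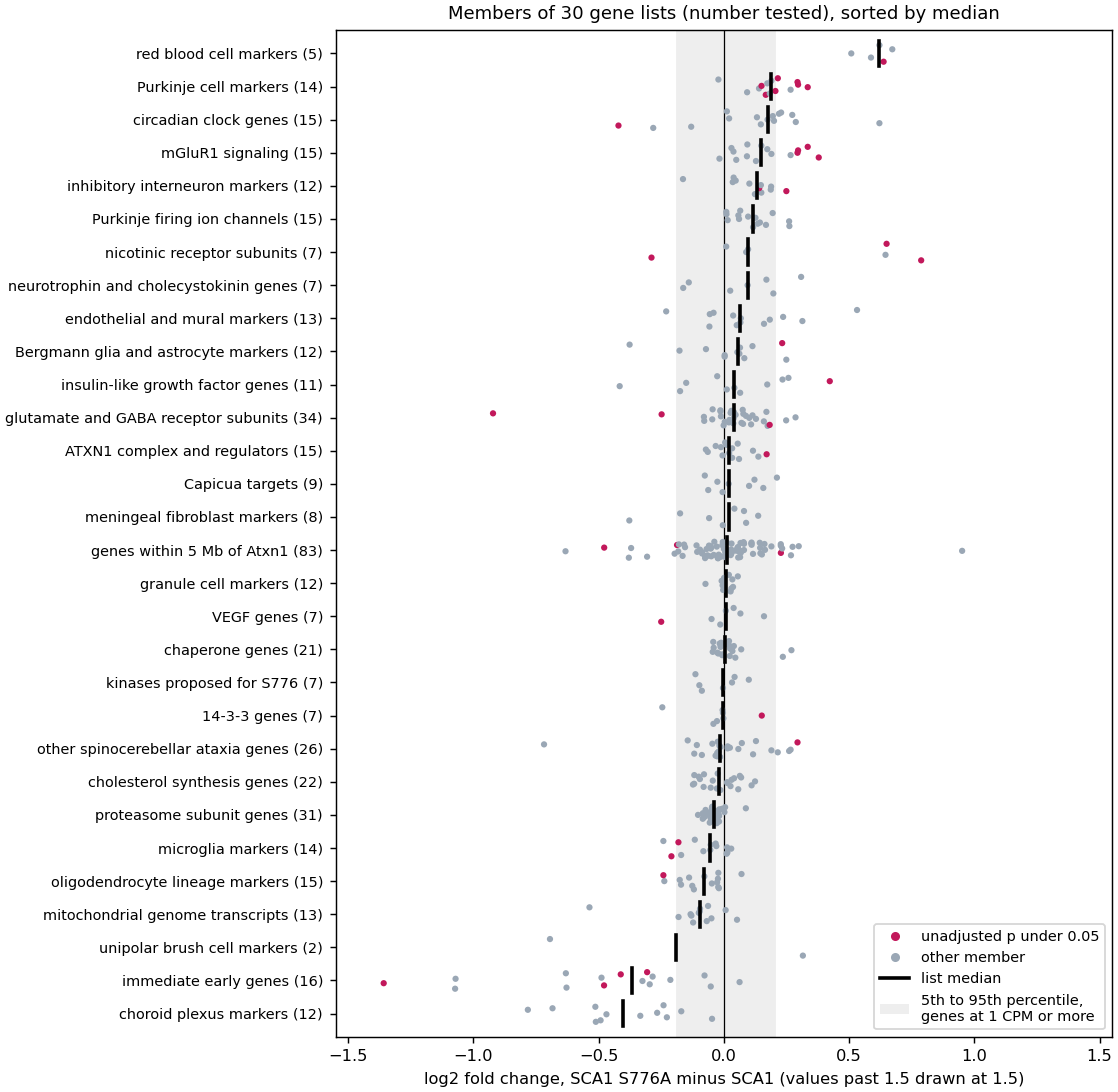
Log2 fold change of SCA1 S776A minus SCA1 mice (horizontal axis) for the tested members of 30 gene lists (points, red where the unadjusted p was under 0.05), with the median of each list (black bar) and the range from the 5th to the 95th percentile of genes at 1 CPM or more (grey band). The lists of Purkinje cells and mGluR1 signaling lie to the right of 0, and those of immediate early genes and choroid plexus to the left.

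In all, the 31 lists held 463 tested genes, of which 0 were called. The median of 19 lists was above 0 and that of 12 below. Nearly uniform signs also stood in lists with a small median. Of 31 proteasome subunit genes, 28 had a lower estimate, with a median of -0.04.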

How the data were processed

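RNA of cerebellar tissue from 24 mice was sequenced as 150 bp paired-end reads on the Illumina HiSeq platform. Per the labels and the study's methods, the authors used Trimmomatic 0.36 for trimming and STAR 2.7.2d for alignment (GRCm38.p6), and deposited whole-number counts of fragments per gene, without normalization. Their ComBat-seq batch correction followed and is not in these counts. The second, unstranded count column was used. Of 54232 gene identifiers, 54165 matched GENCODE M21 without version, and 1 further feature is not reported here.

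Counts were scaled by TMM, and edgeR 4.0.16 gave the main test, by quasi-likelihood (robust, expression filter by genotype) in R 4.3.3, over all 24 libraries with genotype and batch in the fit. The batch was inferred by k-means (k = 2, 50 starts) on 4 mapping shares, since no label gives it. It holds 16 and 8 libraries, and all 8 libraries compared here fell in the batch of 16. TMM factors of the 8 were 1.01 to 1.06. A call needed a log2 fold change beyond 0.5 in either direction, and an adjusted p (Benjamini-Hochberg) under 0.01. CPM use TMM-scaled library sizes. For single values an exact permutation test, two-sided, was used. Intervals and standard errors of the fold changes are those of the model. The p-values of the main fit set the difference between genotypes against a spread between mice that was estimated over all 24 libraries. No pair of libraries agreed within sampling noise (chi-square per degree of freedom of 12.1 or more), so none was taken as a library deposited more than once.

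Alternatives were DESeq2 1.42.0 with batch, on the 8 libraries, or after ComBat-seq (sva 3.50.0), other filters, scaling, count columns, covariates and leaving out each mouse. The edgeR and DESeq2 fits were tested on simulated counts. The named genes are *Atxn1*, *Atxn1l* and *Cic*, every called gene, up to 12 genes a direction with the lowest p at 1 CPM or more, an absolute log2 fold change over 0.5 and no overlap, up to 2 genes a list, and genes called by both DESeq2 fits over 24 libraries. The groups, gene lists and rules were chosen with earlier results of these data known, so lists give no independent support. Windows around gene starts are from RefSeq (GRCm38.p6).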

Additional observations from a re-analysis of the deposited data

Results flagged for a closer look

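Of 96 groups of 4 libraries examined for a value far from the other 3, 3 held one, where chance alone gives about 4.8. A further 8 groups, of muscle, fat, *Slc15a2* and *Eps8l1* values, were added because their values had been seen, and 4 of these held one, which is no count to set against chance.

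SCA1 S776A replicate 2 held 249.1 CPM of skeletal muscle genes, with 8.43 to 15.9 CPM in the other 3 SCA1 S776A libraries, and 129.7 CPM of brown fat genes, with 9.95 to 11.2 CPM in the others. No SCA1 library exceeded 16.8 CPM of the muscle or 15.4 CPM of the fat genes.

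SCA1 S776A replicate 4 had 4.99 CPM of *Slc15a2*, a peptide transporter gene on chromosome 16, and the other 3 had 59.8 to 69.4 CPM. Its brainstem markers summed to 4.19 CPM, with 1.73 to 1.80 CPM in the others. SCA1 replicate 1 had 3.80 CPM of *Eps8l1*, with 4.39 to 4.50 CPM in the other SCA1 libraries.

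*Myo15* was at 5.28 CPM in SCA1 S776A replicate 1 and at 3.87 to 4.10 CPM in the other 3. Mitochondrial transcripts took 3.97% of the fragments on genes in SCA1 replicate 4 and 3.32% to 3.40% in the other SCA1 libraries.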

How the results depend on the processing

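The count of 1 called gene became 0 with edgeR on only the 8 libraries and with the fourth count column. It became 4 with DESeq2 and a batch covariate, 6 with ComBat-seq then DESeq2, 8 with DESeq2 on the 8 libraries and 11 with ComBat-seq then DESeq2 without a filter, an alternative added after the data were seen. Leaving out 1 mouse gave 0 to 2 called genes: 0 without SCA1 replicate 1 or 2, and 2 without SCA1 S776A replicate 4. Of 1858 gene values under the alternatives, 1830 kept direction and call, 21 passed the threshold where they had not, 4 no longer passed it and 3 reversed. Over the fits without 1 mouse, the log2 fold change of *Cbln3* ranged from -0.025 to 0.10 and that of *Flt1* from -0.030 to 0.29. *Cbln3* reversed to -0.013 without SCA1 S776A replicate 1 and to -0.025 without SCA1 replicate 4, and *Flt1* to -0.030 without SCA1 S776A replicate 4. The nicotinic subunit median ranged from 0.06 to 0.44 and the brainstem median from -2.11 to -0.25. Without SCA1 S776A replicate 2, 161 rather than 61 genes of at least 1 CPM lay more than 0.5 lower, and 92 rather than 88 higher. Without SCA1 S776A replicate 4, 125 lay more than 0.5 higher. No paired analysis was possible because the labels do not pair mice of the groups.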

Other observations

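A pair of genes split the SCA1 S776A mice into 3 and 1. *Eps8l1*, on chromosome 7, stood at 15.2, 18.1, 15.2 and 4.44 CPM in SCA1 S776A mice and at 3.80, 4.39, 4.50 and 4.45 CPM in SCA1 mice. The fourth mouse was at the SCA1 level. WT mice had 11.0, 14.7, 11.7 and 15.6 CPM and S776A double mice 14.9, 3.48, 18.1 and 14.9 CPM. The log2 fold change between SCA1 S776A and SCA1 mice was 1.62 ± 0.45 (edgeR adjusted p = 0.855), and without SCA1 S776A replicate 4 it was 1.92 (adjusted p = 0.288). *Slc15a2* had 59.8, 69.4, 65.6 and 4.99 CPM in SCA1 S776A mice and 12.8, 17.6, 33.3 and 15.7 CPM in SCA1 mice, while the WT mice spanned 5.70 to 53.6 CPM. Both genes were named after their values were seen, and the part of genetic background, founder line or litter in their levels was not tested.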
